A study of Mus musculus with 15 samples.

Results

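Extracellular nucleotide signalling in retinal microglia was described through 8 genes, chosen by symbol and by what their products do: the ADP and UDP receptors P2ry12, P2ry13 and P2ry6, the ATP-gated channels P2rx4 and P2rx7, the ectonucleotidases Entpd1 (CD39) and Nt5e (CD73), and the adenosine receptor Adora3. They are 8 of the 35519 genes with transcripts in the tables. The microglia came from C57BL/6 mice aged 12 weeks and were sorted from single retinas as Fcrls+, CD11b+ and Ly6c- cells, 100 to 600 per retina. The groups were Apoe-/- retinas with a microbead injection (n = 4), Apoe-/- retinas with a sham injection (n = 4), wild-type retinas with a microbead injection (n = 3) and wild-type retinas with a sham injection (n = 4), 15 libraries in all. Microbeads raise the pressure inside the eye and serve as a model of glaucoma, and the study asked whether microglia without Apoe, the gene of a lipid carrier, respond to it. Nothing in the sources used here says that the retinas of a group came from separate mice, or how long after the injection they were taken. The library tables of the Apoe-/- and wild-type samples carry different letters in their names. What the letters mark is not stated, and if they mark a batch, it cannot be told apart from genotype. Cells that had lost surface Fcrls would not have been sorted.

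ATP and ADP leak from stressed or damaged cells and act on microglia as local signals. Ionotropic P2X receptors open a cation pore when they bind ATP, and P2Y receptors signal through G proteins in response to nucleotides. ENTPD1 on the microglial surface removes phosphates from ATP and ADP, NT5E turns the resulting AMP into adenosine, and adenosine receptors read the end product. P2RY12 is a widely used marker of resting microglia, where it directs processes toward ADP, while P2RX4 is known in microglia of injured nerve tissue and P2RX7 for activation of the NLRP3 inflammasome.

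Promoter sequences are shown for P2ry12, P2ry13 and P2rx4, the 3 members whose wild-type groups did not overlap after microbead injection. Each is the 250 bases before the RefSeq gene start on GRCm38.p6, written 5′ to 3′ in the direction of the gene, and capitals mark any match to GAGGAA (the core of the sites of the myeloid factor PU.1) or to the E-box CACGTG on either strand. TATAAA was searched as well, and none of the 3 windows held it.
P2ry12, chr3:59262986-59263235, minus strand: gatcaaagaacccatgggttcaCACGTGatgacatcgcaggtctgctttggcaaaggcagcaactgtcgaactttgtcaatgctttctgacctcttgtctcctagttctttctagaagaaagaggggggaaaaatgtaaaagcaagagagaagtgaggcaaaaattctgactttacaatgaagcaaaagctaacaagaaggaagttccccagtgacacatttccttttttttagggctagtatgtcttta
P2ry13, chr3:59210883-59211132, minus strand: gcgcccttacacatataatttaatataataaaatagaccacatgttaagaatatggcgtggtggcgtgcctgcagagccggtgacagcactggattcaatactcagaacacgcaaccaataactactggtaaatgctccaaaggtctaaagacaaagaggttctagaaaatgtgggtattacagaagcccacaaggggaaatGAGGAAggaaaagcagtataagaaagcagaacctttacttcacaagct
P2rx4, chr5:122707294-122707543, plus strand: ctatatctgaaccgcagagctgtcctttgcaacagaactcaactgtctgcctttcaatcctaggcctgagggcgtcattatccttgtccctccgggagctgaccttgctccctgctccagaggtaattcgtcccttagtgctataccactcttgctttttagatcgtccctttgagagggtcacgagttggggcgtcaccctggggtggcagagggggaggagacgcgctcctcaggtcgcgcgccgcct
The P2ry12 window held 1 CACGTG, beginning 228 bases before the start, and 3 CpG dinucleotides. The P2ry13 window held 1 GAGGAA, beginning 48 bases before the start, and 5 CpG dinucleotides. The P2rx4 window held none of the 3 motifs and 13 CpG dinucleotides, against a median of 6 over all windows. Of 32851 promoter windows of that length, 23.3% held GAGGAA, 6.02% held CACGTG and 12.4% held TATAAA on either strand, and the motifs do not overlap one another in these windows. RefSeq windows were matched for 7 of the 8 members.

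On mm10, P2ry12 (ENSMUSG00000036353, chr3:59216272-59262871) and P2ry13 (ENSMUSG00000036362, chr3:59207892-59210882) are neighbours on the minus strand, 5389 bases apart, and both lie within the span of Med12l, a Mediator subunit gene on the other strand. P2rx7 (ENSMUSG00000029468, chr5:122643911-122691432) and P2rx4 (ENSMUSG00000029470, chr5:122707544-122729738) are neighbours on the plus strand, 16111 bases apart. The remaining members are P2ry6 (chr7:100937630-100974649, minus strand), Entpd1 (chr19:40612366-40741602, plus strand), Nt5e (chr9:88327197-88372092, plus strand) and Adora3 (chr3:105870858-105908926, plus strand). All 8 are annotated as protein coding. Med12l shares 9 exon bases with P2ry12 and had 414 reads over the 15 libraries, beside 4837 for P2ry12. Tmigd3 shares 779 exon bases with Adora3 on the same strand and had 11 reads, beside 444 for Adora3. Reads of such overlapping genes cannot be separated with certainty.

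Libraries held 458111 to 714670 reads assigned to genes. Apoe had 3 to 5 reads in the Apoe-/- microbead libraries, 0 to 6 in Apoe-/- sham, 3894 to 15125 in wild-type microbead and 667 to 1225 in wild-type sham. Levels are given in CPM, which are reads scaled to a common library size with TMM factors throughout. The summed level of 9 microglial markers (Fcrls, Tmem119, Cx3cr1, Csf1r, Aif1, Itgam, Sall1, Siglech and Olfml3) was 6200 to 8460 CPM in Apoe-/- microbead, 3860 to 8640 in Apoe-/- sham, 6730 to 8170 in wild-type microbead and 7190 to 8480 in wild-type sham libraries. Apoe-/- sham library 2 had the smallest TMM factor, 0.514, and the lowest of these sums. The wild-type microbead libraries had TMM factors of 1.27 to 1.57, the 3 highest of the series. Summed levels of 14 rod photoreceptor markers ran from 188 to 2610 CPM in Apoe-/- microbead, 153 to 1660 in Apoe-/- sham, 97.4 to 653 in wild-type microbead and 573 to 2610 in wild-type sham libraries. Markers of border macrophages (6 genes) summed to 28 to 114 CPM and those of monocytes (4 genes) to 2.4 to 62.2 CPM, with Ly6c2 at 0 in Apoe-/- microbead, Plac8 in wild-type sham and Chil3 in wild-type microbead libraries. In bulk RNA, fewer cells of a type and less RNA per cell cannot be told apart.

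Per unit of transcript length, P2ry12 was the most abundant of the 8 genes in 15 of 15 libraries. Its mean in the authors' deposited TPM, which are scaled by transcript length, was 167 TPM, and it ranked between 42 and 158 of 34317 genes in single libraries. Entpd1, P2ry6 and P2ry13 followed at means of 35.1, 34.4 and 32.8 TPM. Their order was not stable between libraries: P2ry6 was above Entpd1 in 7 of 15 libraries and P2ry13 above P2ry6 in 6 of 15.

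P2rx4 averaged 21.6 TPM, P2rx7 13.2 TPM and Adora3 7.37 TPM over the 15 libraries. P2rx4 was above P2rx7 in 12 of 15 libraries and P2rx7 above Adora3 in 14 of 15. Over all libraries P2rx4 had 985 reads and P2rx7 1006. Gene TPM adds coding and other transcripts. The intron-retaining P2rx4-203, of 513 bases, held 20.2 to 43.9% of P2rx4 TPM by group. The processed transcript P2rx7-207, of 480 bases, held 21.9 to 52% of P2rx7 TPM. The order by coding transcripts alone is not given here. The place of P2rx4 among the members moved most, between 2 and 7, and it reached place 2 in wild-type microbead library 2 with 76.5 TPM. Nt5e was last in 15 of 15 libraries, at a mean of 0.594 TPM. Transcript of the first enzyme of the ATP-to-adenosine route was thus abundant in these sorts and that of the second scarce.

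**Figure D1:**
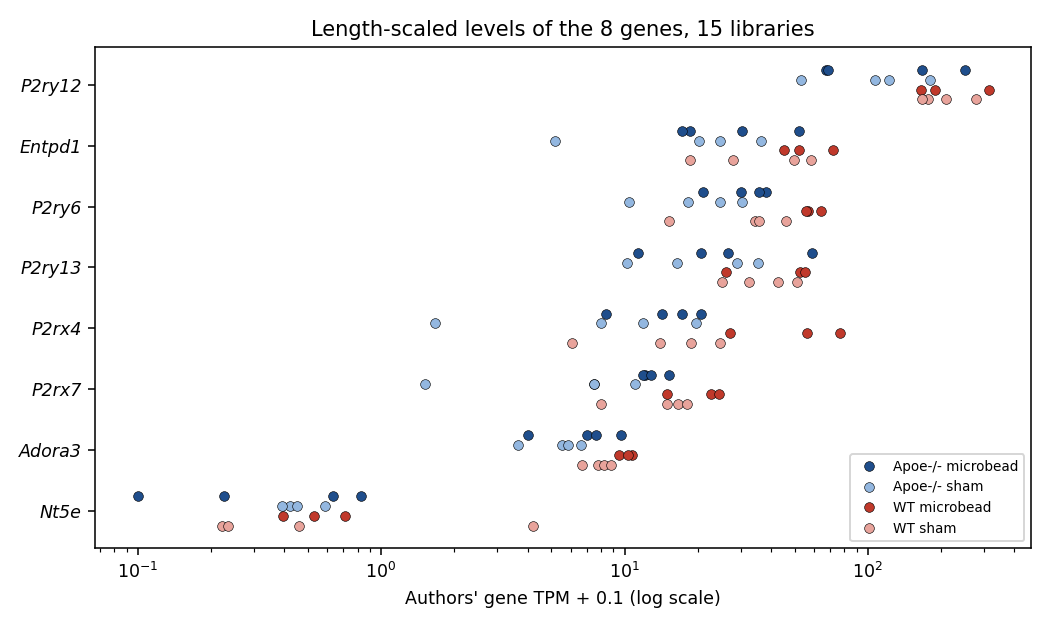
Length-scaled levels of the 8 genes. Each point is 1 of 15 libraries, the horizontal axis is the authors' gene TPM plus 0.1 on a log scale, rows are ordered by mean TPM and colours give the 4 groups. P2ry12 lies furthest right in every library, Nt5e furthest left, and P2rx4 spreads from 1.56 to 76.5 TPM.

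The microbead response in wild-type microglia had lower P2ry12 and P2ry13 and higher P2rx4 in every microbead library than in any sham library, with 4 other members overlapping. None of the differences passed the test. By edgeR's quasi-likelihood F-test with Benjamini-Hochberg adjustment over 6521 genes, 0 of the 7 members tested had an adjusted p under 0.05, where 0.199% of all genes did. Unadjusted p was under 0.05 for P2rx4 and P2ry12, against 7.87% of all genes, and DESeq2 called 0 members, against 0.552% of the genes it tested. Across all genes, 6.32% were higher and 4.22% lower in every microbead than in every sham library, so groups that do not overlap were not rare. The median log2 fold change was -0.046 over the 7 members and -0.01 over all genes tested.

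P2ry12, the ADP receptor that marks resting microglia, had 416, 353 and 532 CPM in wild-type microbead libraries, against 724, 603, 747 and 733 CPM in wild-type sham libraries. The highest microbead library stayed below the lowest sham library. The means were 433.6 ± 91 CPM (SD, n = 3) in microbead and 701.9 ± 66.7 CPM (SD, n = 4) in sham retinas. The log2 fold change was -0.70 (SE 0.317, 95% interval -1.36 to -0.0322), with an unadjusted p of 0.0408 and an adjusted p of 0.612 in edgeR's model. Platelets also express P2ry12. The levels of 6 platelet markers, with Gp1bb at 0 in all libraries, summed to 2.9 to 6.67 CPM in wild-type microbead and 17.2 to 24.3 CPM in wild-type sham libraries. In Apoe-/- libraries they summed to 0 to 16.6 CPM with microbeads and 8.7 to 40 CPM with sham injection. Only 1 of the 6 had enough reads to be tested, and 3 reads correspond to 3 to 4.35 CPM in wild-type microbead libraries. The part of these markers in the result was not tested.

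P2ry13, a second ADP receptor next to P2ry12 on the chromosome, had 158, 226 and 224 CPM in wild-type microbead libraries, against 328, 274, 312 and 254 CPM in wild-type sham libraries. Here too the groups did not overlap. Its log2 fold change was -0.53 (SE 0.331, edgeR adjusted p = 0.731). The number of P2ry13 reads per P2ry12 read, which needs no scaling between libraries, was 0.38 to 0.64 in microbead and 0.346 to 0.455 in sham libraries and overlapped.

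P2ry6, the UDP receptor that triggers uptake of debris, had 193, 205 and 187 CPM in wild-type microbead libraries, against 169, 154, 191 and 98.9 CPM in wild-type sham libraries. The groups overlapped, and the log2 fold change of 0.34 (SE 0.246, edgeR adjusted p = 0.762) did not pass. Sham library 4 had the lowest P2ry6 and the highest rod marker level of its group, 2610 CPM. Without that library the log2 fold change was 0.18.

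P2rx4, an ATP-gated channel of the plasma membrane and lysosome, showed the largest positive fold change of the members. It had 135, 215 and 157 CPM in wild-type microbead libraries, against 118, 101, 87.5 and 71 CPM in wild-type sham libraries. Every microbead library was above every sham library. The means were 169 ± 41.4 CPM (SD, n = 3) in microbead and 94.57 ± 20.2 CPM (SD, n = 4) in sham retinas, a 1.78-fold higher level. The log2 fold change was 0.84 (SE 0.341, 95% interval 0.123 to 1.55), with an unadjusted p of 0.0239 and an edgeR adjusted p of 0.541. It was 0.62 without microbead library 2. In a fit that adds the mean log2 CPM of the 13 rod markers tested in each library, it was 0.35 (edgeR adjusted p = 0.987).

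Beside P2rx4, other measures varied between these libraries, with wild-type groups that overlapped. The summed rod marker level was 653, 336 and 97.4 CPM in wild-type microbead libraries, against 580, 573, 2250 and 2610 CPM in wild-type sham libraries. Immediate early and dissociation genes (Fos, Jun, Egr1 and others, 12 in all, with Hspa1b at 0 in both groups) summed to 1410, 8440 and 4530 CPM in microbead libraries, against 1310, 229, 3960 and 2420 CPM in sham libraries. Library 2 of the wild-type microbead group was highest both for these genes and for P2rx4. In the Apoe-/- microbead group they summed to 2530, 251, 156 and 8680 CPM, where library 4, with the highest sum, had the lowest P2rx4, 56 CPM, and library 2 the highest, 148 CPM. Their part in the result was not tested beyond the rod covariate.

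P2rx7, the channel that opens at high ATP, had 112, 125 and 135 CPM in wild-type microbead libraries, against 147, 105, 150 and 108 CPM in wild-type sham libraries. The ranges overlapped, with a log2 fold change of -0.046 (SE 0.257, 95% interval -0.582 to 0.49, edgeR adjusted p = 0.988). Reads of its chromosomal neighbour P2rx4 per P2rx7 read were 1.21, 1.72 and 1.17 in microbead libraries, against 0.804, 0.967, 0.584 and 0.66 in sham libraries. These ratios compare genes within a library and did not overlap between the groups. P2rx4 was already apart between the groups in CPM, so the ratio is no separate observation.

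Entpd1, which begins the breakdown of ATP, had 256, 241 and 240 CPM in wild-type microbead libraries, against 275, 224, 254 and 187 CPM in wild-type sham libraries. The microbead values lay inside the sham range. Its log2 fold change was 0.063 (SE 0.307, 95% interval -0.578 to 0.704, edgeR adjusted p = 0.984).

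Adora3, a receptor for adenosine, had 55, 38 and 44 CPM in wild-type microbead libraries, against 59.2, 64.6, 51.6 and 55.9 CPM in wild-type sham libraries. One microbead library, the first, reached into the sham range. The log2 fold change was -0.34 (SE 0.247, edgeR adjusted p = 0.762).

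Nt5e, the enzyme that makes adenosine from AMP, had too few reads to be tested. It had 3, 0, 1 and 5 reads in Apoe-/- microbead libraries, 2, 2, 2 and 3 in Apoe-/- sham, 2, 3 and 3 in wild-type microbead and 1, 1, 3 and 8 in wild-type sham libraries. The 39 reads came from 14 of 15 libraries. The 8 reads were in wild-type sham library 4, the library with the highest rod marker level of its group. A difference between groups was not detectable at this depth, where 3 reads, the limit that a count of 0 allows, correspond to 3 CPM in the library of largest scaled size and 13.3 CPM in that of smallest.

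**Figure D2:**
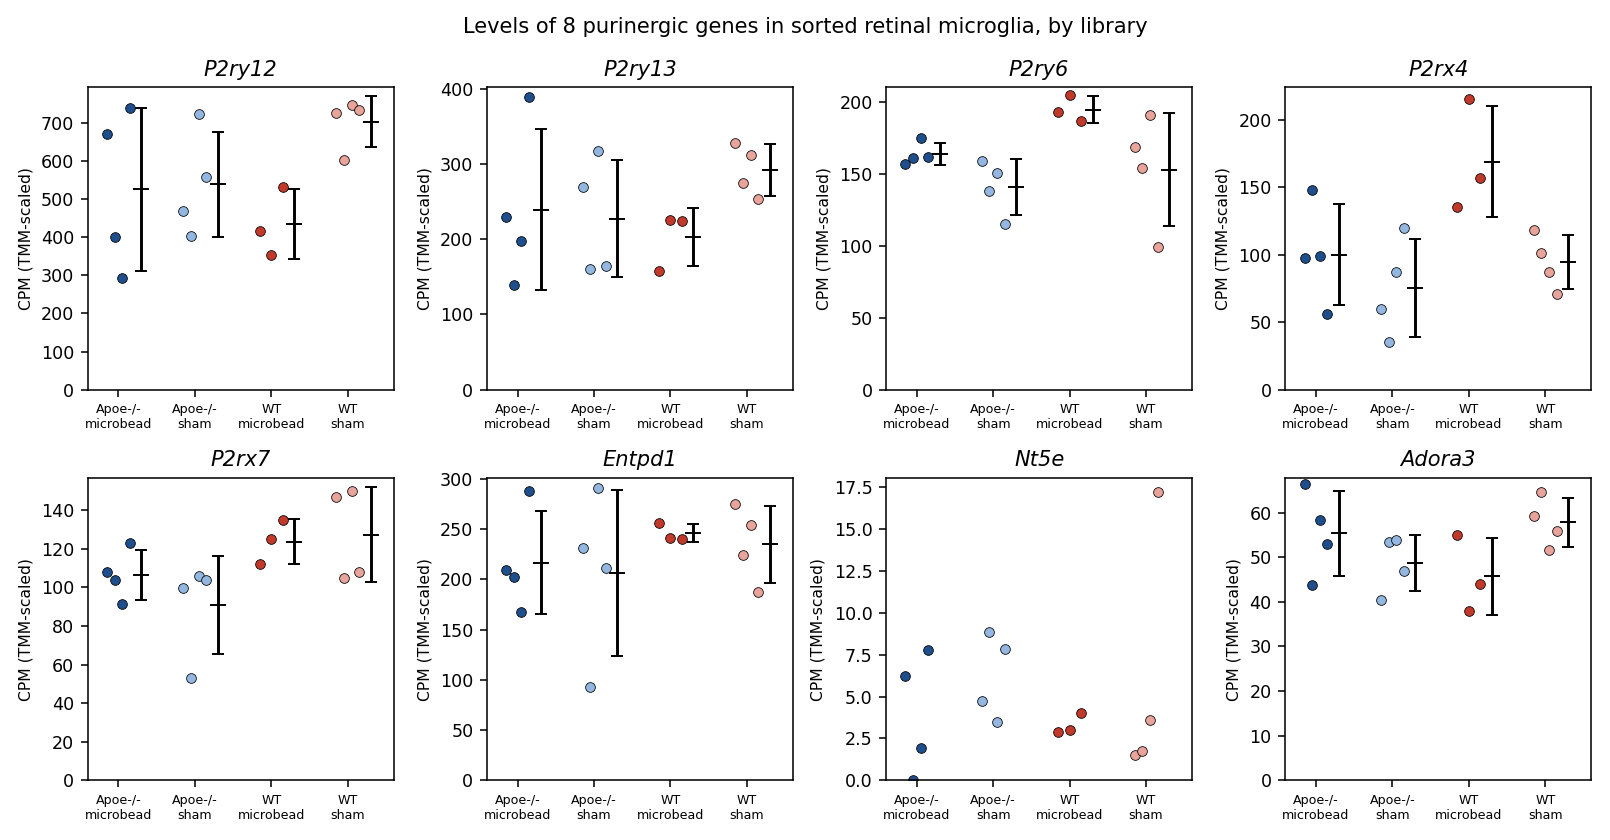
Levels of the 8 genes by library. Points are libraries in TMM-scaled CPM on the vertical axis, horizontal bars with error bars are the mean and SD of a group (none for Nt5e), and groups run from Apoe-/- microbead to wild-type sham. Wild-type microbead points lie below the wild-type sham points for P2ry12 and P2ry13 and above them for P2rx4, while the Apoe-/- groups overlap for all 8 genes. Over all genes, groups without overlap were also less common in Apoe-/- (1.55% higher, 0.951% lower) than in wild type (6.32% and 4.22%).

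The scale mattered for P2ry12 and P2ry13, and also for P2rx7 and Adora3. On log2(TPM + 1), tested with limma, the median of all genes was 0.59 higher in wild-type microbead than in wild-type sham libraries. P2ry12 differed by 0.07 and P2ry13 by 0.21 on that scale, the opposite sign to their CPM. P2rx7, at 0.52, and Adora3, at 0.34, turned positive as well, while P2ry6, P2rx4 and Entpd1 kept their sign. Relative to the median of all genes, P2ry12 stood at -0.52 and P2ry13 at -0.38, while P2rx4 stood at 1.14. The mean level of P2ry12 on the TPM scale was 222.1 ± 79.7 TPM (SD, n = 3) in microbead and 207.4 ± 50.1 TPM (SD, n = 4) in sham libraries.

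Read ratios avoid the choice of scale. P2rx4 reads per P2ry12 read were 0.324, 0.609 and 0.296 in wild-type microbead libraries, against 0.164, 0.168, 0.117 and 0.0968 in wild-type sham libraries. In Apoe-/- mice the ratios were 0.145, 0.37, 0.34 and 0.0758 in microbead libraries, against 0.127, 0.0879, 0.12 and 0.215 in sham libraries. The wild-type groups were apart and the Apoe-/- groups overlapped. In wild type each of the 2 genes already lay apart between the groups in CPM, so the ratio is no separate observation. In wild type, reads per P2ry12 read were also apart for P2ry6, at 0.351 to 0.581 in microbead and 0.135 to 0.255 in sham libraries. P2rx7 had 0.253 to 0.354 against 0.147 to 0.203, and Entpd1 0.451 to 0.683 against 0.255 to 0.379. The ratio of P2ry13, given above, overlapped. The separation was thus not particular to P2rx4. P2ry6, P2rx7 and Entpd1 overlapped in their own CPM. Their ratios share P2ry12, which was apart in CPM, as denominator and are no separate observations. The share of all genes apart in such a ratio is not given here. These ratios were not tested.

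P2rx4 reads were divided between coding transcripts and transcripts that retain an intron. Over all libraries, 61.9% of them were assigned to the coding class and 36.8% to the other. Coding transcripts had 76.8, 174 and 110 CPM in wild-type microbead libraries, against 45, 60.5, 47.5 and 45.8 CPM in wild-type sham libraries. Intron-retaining transcripts had 56.4, 41.3 and 39.8 CPM in microbead libraries, against 73.4, 40.1, 39.6 and 25.7 CPM in sham libraries. The first class did not overlap between groups and the second did, and the difference between the classes was not tested.

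The coding share of P2rx4 reads was 54.7% in Apoe-/- microbead, 56.3% in Apoe-/- sham, 72.5% in wild-type microbead and 51.8% in wild-type sham libraries, pooled over a group. By library it was 56.8, 80.8 and 69.8% in wild-type microbead, against 37.9, 60.1, 54.6 and 64% in wild-type sham retinas. These shares overlapped, and microbead library 2 held 215 of the P2rx4 reads of its group, beside 93.3 and 118 in the other libraries. Transcript P2rx4-202 held 40.3% of all P2rx4 reads and the intron-retaining P2rx4-208 held 28%. With protein-coding transcripts alone, a choice made after these shares were seen, the wild-type log2 fold change of P2rx4 was 1.19 (SE 0.347, unadjusted p = 0.00326, edgeR adjusted p = 0.345 over 5081 genes). In Apoe-/- retinas coding P2rx4 transcripts had 59.1, 78.2, 45.7 and 35.2 CPM in microbead libraries, against 39.4, 18.7, 44 and 68.5 CPM in sham libraries. These overlapped, and the log2 fold change was 0.25 (edgeR adjusted p = 0.968). Salmon divides reads among transcripts that share exons, so a class level is an estimate.

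**Figure D3:**
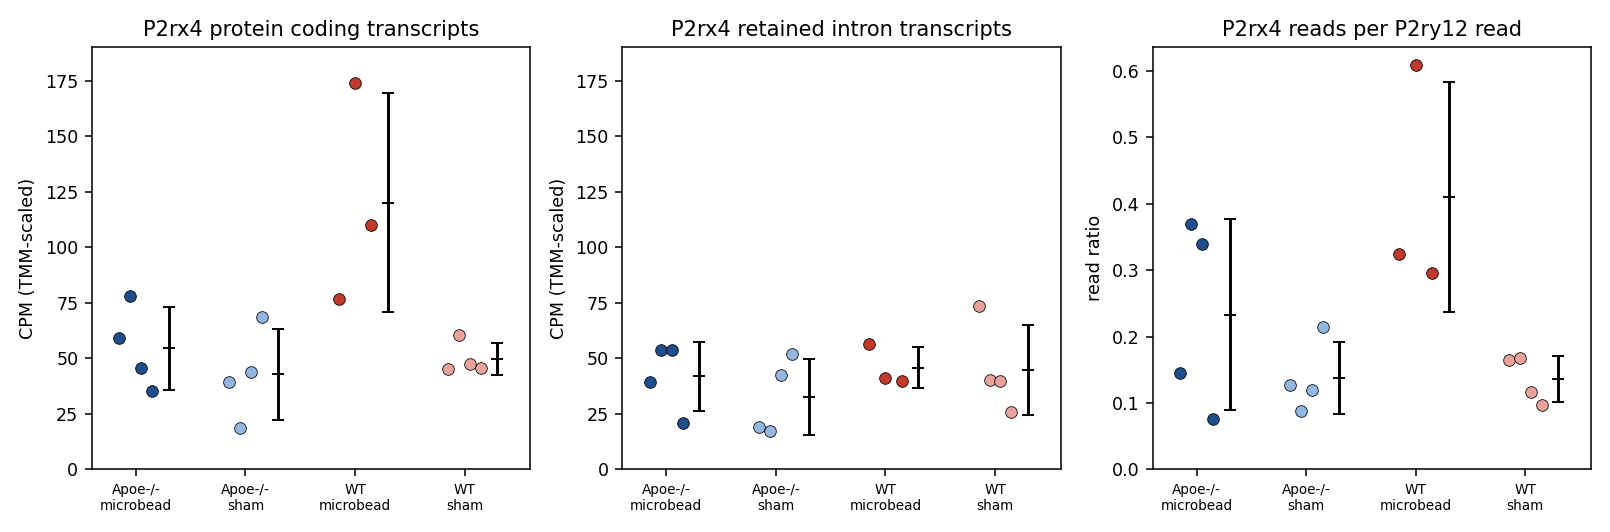
P2rx4 by transcript class and relative to P2ry12. Points are libraries, bars are the mean and SD of a group, the left and middle panels give TMM-scaled CPM of coding and intron-retaining transcripts, and the right panel gives P2rx4 reads per P2ry12 read. Wild-type microbead libraries lie at 76.8 to 174 CPM for coding transcripts, above the sham range of 45 to 60.5 CPM, and the intron-retaining panel shows overlapping groups.

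By reads, transcripts of the other members were mostly coding. All reads of P2ry12 and P2ry13 were assigned to coding transcripts, with 54.3% of P2ry12 reads on P2ry12-202. P2rx7-203 held 76.4% of P2rx7 reads, and Entpd1-201 and Entpd1-204 held 42.6% and 42.3% of Entpd1 reads. Intron-retaining transcripts held 13.9% of P2ry6 and 29.3% of Adora3 reads. Shares differed by TPM, where short transcripts weigh more. The processed transcript P2rx7-207 held 52% of P2rx7 TPM in Apoe-/- microbead and 21.9 to 29.7% in the other groups. The intron-retaining Adora3-203 held 36.3 to 53% of Adora3 TPM by group, and P2ry6-202 held 26.3 to 47.4% of P2ry6 TPM.

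In Apoe-/- microglia none of the members separated microbead from sham retinas. Across all genes, 1.55% were higher and 0.951% lower in every microbead than in every sham library, with n = 4 in each group. These shares were 6.32% and 4.22% in wild type, with n = 3 against n = 4, so overlap is not directly comparable between the genotypes. Of the 7 members tested, 0 passed in edgeR, where 0% of 6521 genes did, and 0 had an unadjusted p under 0.05, against 6.95% of all genes. DESeq2 called 0 members and 0% of all genes. P2rx4 had 97.4, 148, 99.1 and 56 CPM in Apoe-/- microbead libraries, against 59.5, 35.5, 87 and 120 CPM in Apoe-/- sham libraries. These ranges overlapped, and the log2 fold change was 0.36 (SE 0.34, 95% interval -0.352 to 1.07, edgeR adjusted p = 0.827).

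P2ry12 had 671, 399, 292 and 739 CPM in Apoe-/- microbead libraries, against 469, 404, 722 and 558 CPM in Apoe-/- sham libraries. The microbead libraries bracketed the sham libraries, with a coefficient of variation of 40.8% in the microbead group, and the log2 fold change was -0.037 (95% interval -0.646 to 0.571). P2ry13 was as wide, with 230, 139, 198 and 389 CPM in microbead and 269, 160, 317 and 164 CPM in sham libraries. Its log2 fold change was 0.068 (SE 0.308).

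The other members differed by small amounts in Apoe-/- retinas. P2ry6 had 157 to 175 CPM in microbead and 115 to 159 CPM in sham libraries, a log2 fold change of 0.22 (SE 0.235). P2rx7 had 108, 104, 91.4 and 123 CPM in microbead libraries, against 99.9, 53.3, 106 and 104 CPM in sham libraries. Entpd1 had 209, 202, 167 and 288 CPM in microbead libraries, against 231, 93.2, 291 and 211 CPM in sham libraries. Both enzyme and channel overlapped between the groups, with log2 fold changes of 0.20 for P2rx7 and 0.054 for Entpd1. Adora3 had 66.3, 43.7, 58.3 and 52.9 CPM in microbead libraries, against 40.4, 53.3, 53.9 and 47 CPM in sham libraries, a log2 fold change of 0.19. The members' median was 0.193, beside 0.00791 over all genes tested. Sham library 2 held the lowest P2rx4, P2rx7 and Entpd1 of the series, and without it the log2 fold change of P2rx4 was 0.15, that of P2rx7 0.040 and that of Entpd1 -0.18. Over all libraries left out in turn, that of P2rx4 ran from 0.11 without Apoe-/- microbead library 2 to 0.64 without Apoe-/- sham library 4.

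**Figure D4:**
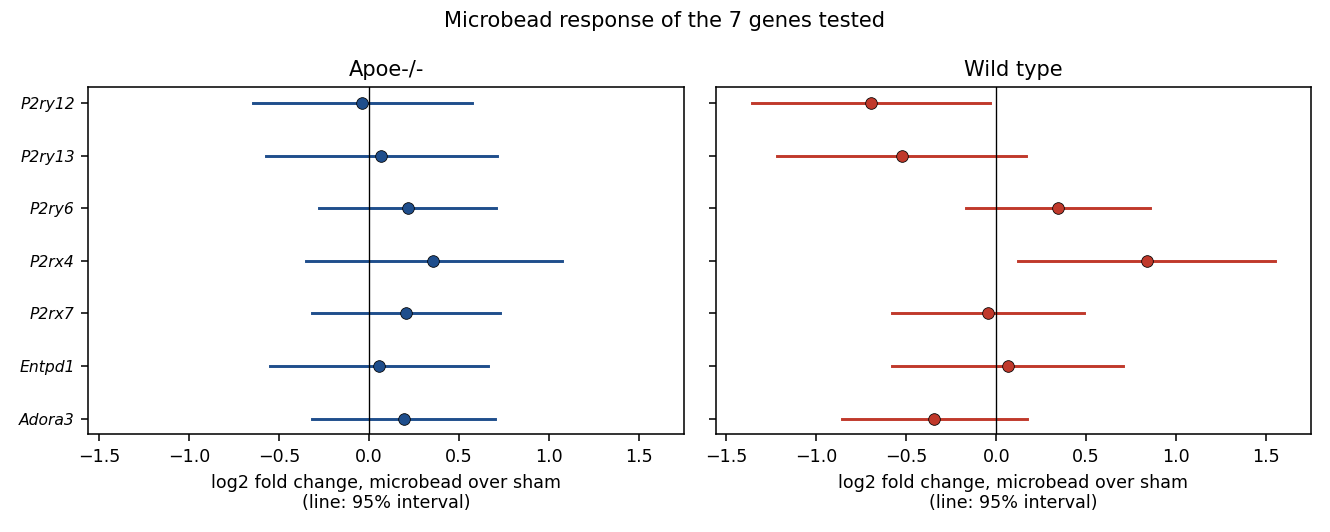
Microbead response of the 7 tested genes in each genotype. Points are log2 fold changes of microbead over sham from edgeR, lines are 95% intervals, and the vertical line marks no difference. In wild type the intervals of P2ry12 and P2rx4 leave out 0, which they do before adjustment over 6521 genes, and in Apoe-/- all 7 intervals include it.

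The genotypes were compared in their response directly, as the Apoe-/- response minus the wild-type response. None of the 7 members passed in edgeR, where 0% of all genes did, 0 members had an unadjusted p under 0.05, against 3.39% of all genes, and DESeq2 called 0 members and 0% of all genes. The difference was 0.66 for P2ry12 (SE 0.429, 95% interval -0.238 to 1.55, unadjusted p = 0.141, edgeR adjusted p = 1) and 0.59 for P2ry13 (SE 0.451). It was 0.54 for Adora3 (SE 0.347) and -0.48 for P2rx4 (SE 0.483, 95% interval -1.49 to 0.53). The intervals are wide, so these data show neither a difference between the genotypes in the purinergic response nor its absence. With coding transcripts alone the P2rx4 difference was -0.94 (SE 0.498, unadjusted p = 0.0774), and with the rod covariate on all transcripts it was 0.21.

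Between genotypes in sham retinas, all 7 members tested had a negative log2 fold change, Apoe-/- over wild type. The values ran from -0.47 for P2rx7 (95% interval -0.981 to 0.05) to -0.12 for P2ry6, with a median of -0.30 beside -0.01 over all genes. The members share the scaling of the same 8 libraries, so their signs are not separate observations. The 9 microglial markers summed to 6520, 3860, 8640 and 6220 CPM in Apoe-/- sham, against 8370, 7940, 8480 and 7190 CPM in wild-type sham libraries, and their part in the result was not tested. None passed in edgeR, where 0.0153% of genes did, which is Apoe alone. Unadjusted p was under 0.05 for 0 members and 8.68% of all genes, and DESeq2 called 0 members and 0.0153% of genes. The groups overlapped for all 7, where 1.2% of genes were higher and 2.39% lower in every Apoe-/- than in every wild-type sham library. Without Apoe-/- sham library 2, Entpd1 stood at 0.060 and P2rx4 at -0.095.

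Between genotypes in microbead retinas, P2rx4 had the largest fold change of the members and P2ry6 the only groups that did not overlap. P2rx4 levels were 97.4, 148, 99.1 and 56 CPM in Apoe-/- microbead libraries, against 135, 215 and 157 CPM in wild-type microbead libraries. The log2 fold change of -0.77 had an SE of 0.344, an unadjusted p of 0.0362 and an edgeR adjusted p of 0.633, and it was -0.41 with the rod covariate. P2ry6 was the member whose groups did not overlap, at 157, 161, 175 and 162 CPM in Apoe-/- microbead libraries, against 193, 205 and 187 CPM in wild-type microbead libraries. Its log2 fold change was -0.25 (SE 0.247, edgeR adjusted p = 0.86), and 3.14% of all genes were higher and 3.7% lower in every Apoe-/- than in every wild-type microbead library.

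Of the 7 members, 0 passed in that comparison in edgeR, where 0.046% of genes did (Apoe, Spp1 and Lgals3, named after their values were seen). P2rx4 was the 1 member with an unadjusted p under 0.05, against 7.19% of all genes. DESeq2 gave 579 genes an adjusted p there, of which it called 4.49%, and called 0 of the 5 members among them. P2rx4 and Adora3 had no adjusted p in DESeq2. P2ry12 and P2ry13 had log2 fold changes of 0.28 (SE 0.315) and 0.24 (SE 0.33). On log2(TPM + 1) they turned to -0.85 and -0.75, where the median of all genes was -0.735.

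A list of 62 other genes of the pathway put the members beside further receptors, nucleotide-degrading enzymes, release channels, transporters and signalling partners. Only 26 of them had enough reads to be tested. In each of the 5 comparisons 0 of the 26 passed in edgeR, and 6, 1, 2, 2 and 0 had an unadjusted p under 0.05 in the order wild-type response, Apoe-/- response, their difference, genotype in sham and genotype in microbead. The shares of all genes that passed in edgeR were 0.199, 0, 0, 0.0153 and 0.046% in that order. Those with an unadjusted p under 0.05 were 7.87, 6.95, 3.39, 8.68 and 7.19%. The median log2 fold change of the 26 was 0.0015 in the wild-type response and 0.20 in the Apoe-/- response. DESeq2 called 1 of the 26, Adora1, in the wild-type response, against 0.552% of the genes it tested. It called 0 of the 26 in the Apoe-/- response, the difference and the genotypes in sham, against 0, 0 and 0.0153% of genes. For the genotypes in microbead retinas it gave 3 of them an adjusted p, Adora1 not among these. It called 0 of the 3, against 4.49% of all genes with an adjusted p there. In the wild-type response, Adora1, Cant1 and Gnb2 were higher and Gnb1 and Pnp lower in every microbead than in every sham library, 5 of the 26. Across all genes, 6.32% were higher and 4.22% lower in this way. Of the 5, Cant1 and Gnb2 were chosen after their values were seen.

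Adora1, the gene of another adenosine receptor, had 18.8, 38 and 69.4 CPM in wild-type microbead libraries, against 3.6 to 9.11 CPM in wild-type sham libraries. The groups did not overlap. The log2 fold change was 2.59 (SE 0.627, edgeR adjusted p = 0.108, DESeq2 adjusted p = 0.0442). In Apoe-/- libraries it had 6.21 to 43.7 CPM with microbeads and 0 to 8.88 CPM with sham injection, a log2 fold change of 1.84 (SE 0.716, edgeR adjusted p = 0.7). The responses differed by -0.75 between the genotypes (SE 1.01, edgeR adjusted p = 1). Its counts were low, at 103 reads over the wild-type microbead and 17 over the wild-type sham libraries.

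Gnb1 and Pnp followed Adora1 in order of p in the wild-type response. Gnb1, a G protein beta subunit that rods also use in transducin, had 90.7 to 138 CPM in wild-type microbead and 167 to 409 CPM in wild-type sham libraries (log2 fold change -1.27, SE 0.431, edgeR adjusted p = 0.454). The rod marker level, given above, was also at its highest in sham libraries. The fit with the rod covariate included Gnb1 and called 0 of the other pathway genes in the wild-type response. The fold change of Gnb1 in that fit is not given here, so the part of the rod level in its value is not shown. Pnp, which degrades inosine and guanosine, had 41.3 to 48 CPM in wild-type microbead and 62.4 to 79 CPM in wild-type sham libraries (log2 fold change -0.63, SE 0.233, edgeR adjusted p = 0.505). In Apoe-/- retinas Pnp had 46.4 to 56.4 CPM with microbeads and 59.1 to 80.9 CPM with sham injection (log2 fold change -0.40, edgeR adjusted p = 0.724). Its groups did not overlap in either genotype. Nlrp3, the inflammasome sensor downstream of P2RX7, was singled out after its values were seen, with 20.3, 67 and 78.7 CPM in the wild-type microbead libraries in order of size and 21.3 to 28.8 CPM in wild-type sham libraries. Its log2 fold change was 1.17 (SE 0.444, edgeR adjusted p = 0.517).

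After Adora1, the smallest p in the Apoe-/- response belonged to Ampd2, an AMP deaminase, and Pik3cg, a kinase activated by G protein beta-gamma subunits. Their log2 fold changes were 0.91 (SE 0.456, edgeR adjusted p = 0.7) and 0.52 (SE 0.263, edgeR adjusted p = 0.7). Ampd2 had 20.2 to 33.1 CPM in Apoe-/- microbead and 12.2 to 17.8 CPM in Apoe-/- sham libraries, which did not overlap. Across all genes, 1.55% were higher and 0.951% lower in every Apoe-/- microbead than in every Apoe-/- sham library.

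The most abundant of the other genes were Pycard, the inflammasome adaptor, at a mean of 33.4 TPM over the 15 libraries, Gnb1 at 24.1, the pore-former Gsdmd at 19.2, the nucleoside transporter Slc29a3 at 13.9 and Gnai2, a subunit of the inhibitory G protein through which P2RY12 signals, at 13.2 TPM. Their wild-type log2 fold changes, leaving out Gnb1, were 0.25, -0.039, -0.023 and -0.32 in that order. None of these passed. At the other end, 36 of the 62 genes could not be tested, and 15 had fewer than 10 reads over all libraries. Among them were the adenosine receptor genes Adora2a with 1 read and Adora2b with 5, and Bdnf, a growth factor gene linked to P2RX4 in spinal microglia, with 8.

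**Figure D5:**
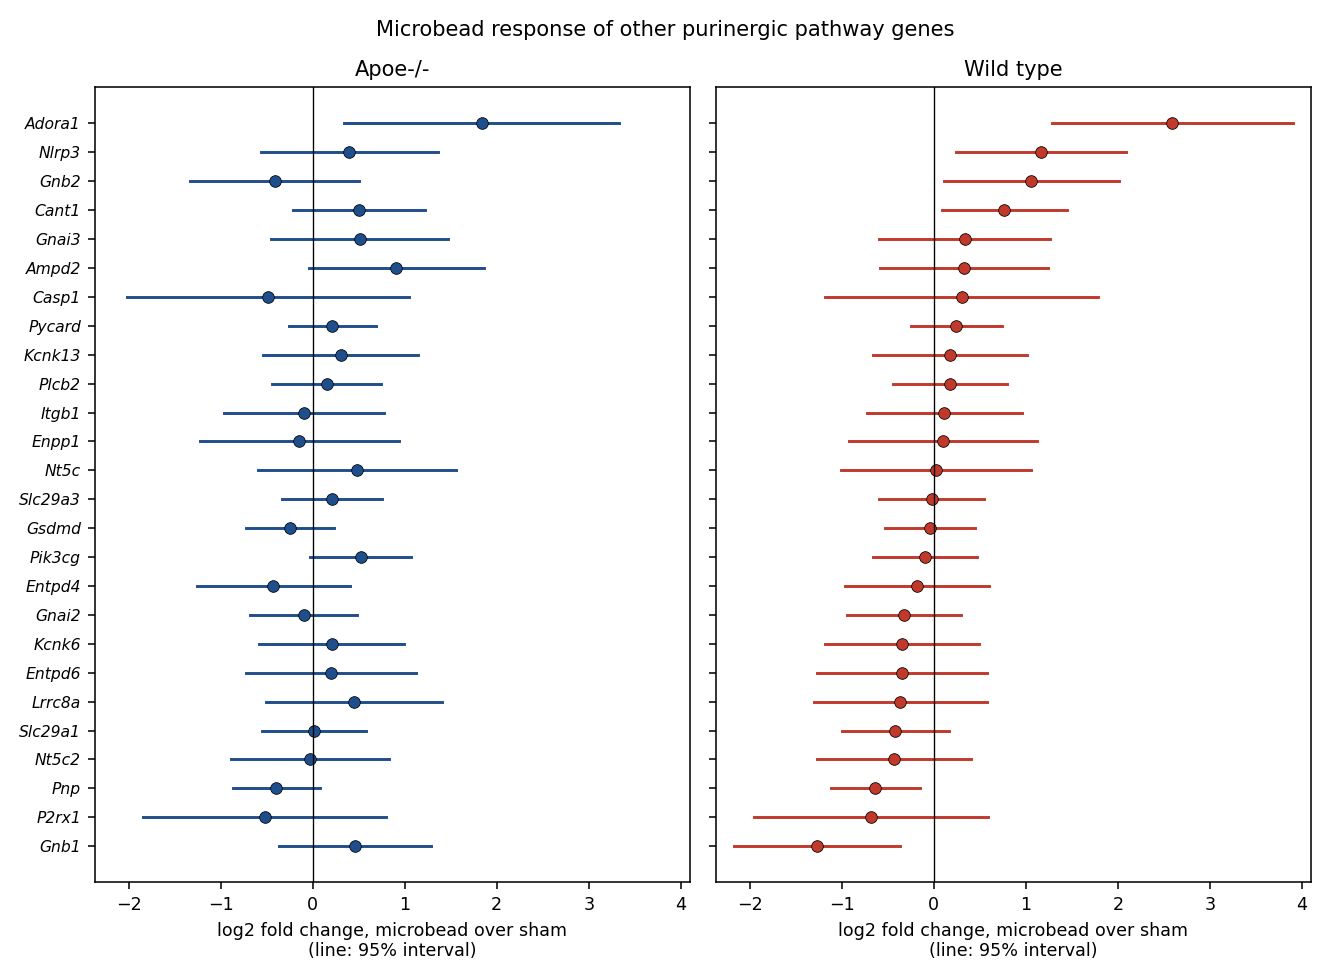
Microbead response of the 26 other pathway genes tested. Points are log2 fold changes of microbead over sham from edgeR, lines are 95% intervals, and genes are ordered by the wild-type value. Adora1 stands at the top in both genotypes, at 1.84 in Apoe-/- and 2.59 in wild type, and the interval leaves out 0 for 1 gene in Apoe-/- and 6 in wild type. Of all genes, 6.95% in Apoe-/- and 7.87% in wild type had an unadjusted p under 0.05 in edgeR.

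Across the 15 libraries, the members differed in how closely their log2 CPM followed one another, a description over libraries whose depth, scaling and cell mixture enter every value. P2rx7 and Entpd1 had a Pearson r of 0.872, P2ry12 and P2ry13 of 0.699, and P2ry12 and P2rx4 of -0.245. Among 1082 genes with a mean log2 CPM of at least 6, those most like P2ry12 were Arap3 (r = 0.871), Gpr34 (0.863), Rin2 (0.835), Plxdc2 (0.817) and Elmo1 (0.812). P2ry13 was closest to Elmo1 (0.853), Calm2 (0.848) and Ivns1abp (0.841), so Elmo1 stood on both lists.

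P2rx7 and Entpd1 had the same nearest gene, Csf1r, the receptor of the growth factor on which microglia depend, at r = 0.912 and 0.922. The next for P2rx7 were Lpcat2 (0.893) and Dnajc7 (0.88), and for Entpd1 Vsir (0.916) and Arhgap45 (0.908). P2rx4 was closest to Pbxip1 (0.863) and to the lysosomal genes Grn (0.845) and Ctsb (0.83). P2ry6 was closest to Cd84 (0.87), Eef1b2 (0.817) and Ucp2 (0.804), and Adora3 to Cep85 (0.803), Kctd12 (0.707) and Rcsd1 (0.69). These values include the differences between groups and between single libraries. P2rx7 and Entpd1 both had their lowest level of the series in Apoe-/- sham library 2, at 53.3 and 93.2 CPM. Their r with each other and with Csf1r without that library is not given here.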

How the data were processed

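Bulk SMART-Seq2 libraries of sorted microglia from 15 retinas were used. The authors deposited 1 Salmon table per library with estimated counts of reads per transcript, per the file headers, and a gene table of TPM for the whole series. Salmon 1.4.0, DESeq2 1.30.1 and R 4.0.3 appear in the submitters' processing notes, with mm10 as the build. Annotation release, strand setting and read filters were not given in the sources used here.

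Through GENCODE M21, 116023 of 116945 transcript identifiers were linked to a gene, and the others held 0.217 to 0.354% of a library's reads and were left out. TPM summed in this way equalled the authors' deposited TPM (relative tolerance 0.001) in 99.73% of values. Counts summed per gene were rounded and tested with edgeR 4.0.16 in R 4.3.3 (quasi-likelihood F-test, TMM, filterByExpr) in 1 model of 4 groups with 5 contrasts, two-sided, adjusted by Benjamini-Hochberg over 6521 genes at 0.05. The common biological coefficient of variation was 34.4%.

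P-values measure only the spread between these samples, which may be partly technical. Every pair of libraries within a group differed by more than sampling noise, with a chi-square of at least 2.21 per degree of freedom. The labels do not say that equal replicate numbers mark a shared mouse or day, so the block is an alternative. Reads without molecular identifiers are not independent molecules, so the limit of 3 reads is for counting error alone.

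Alternatives were DESeq2 1.42.0, RLE factors, no filter, limma 3.58.1 on log2(TPM + 1) and log2(TPM + 0.1), the 2 groups alone, the replicate block, a rod marker covariate, leaving out each library and, added after the data were seen, protein-coding transcripts alone. The members, gene lists and tests were chosen with earlier results of these data known. Named were the 8 members, other pathway genes that passed, the 3 of smallest p in each microbead response and the 5 of highest TPM, and for likeness the 5 genes closest to P2ry12 and the 3 closest to each other member. Adora1 counts under more than 1 part of that rule.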

Additional observations from a re-analysis of the deposited data

Results flagged for a closer look

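In groups of 4, each member's highest and lowest library was set against the others by Dixon's ratio, the gap to the nearest library over the range of the group, with a 95% critical value of 0.829. Of 24 groups checked, 3 passed it, and chance alone passes about 1 in 20.

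P2ry12 had 603 CPM in wild-type sham library 2, where the nearest of the others had 724 CPM, a gap of 0.844 of the range. That library stayed above all 3 wild-type microbead libraries, of which the highest had 532 CPM.

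P2rx7 had 53.3 CPM in Apoe-/- sham library 2, where the nearest of the others had 99.9 CPM, a gap of 0.883 of the range. It is the library with the smallest TMM factor, 0.514, and the lowest sum of 9 microglial markers, 3860 CPM. It also had the highest sums of the series for 8 endothelial markers, 93.2 CPM, and 4 monocyte markers, 62.2 CPM. The part of these in the value was not tested.

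Nt5e had 17.2 CPM in wild-type sham library 4, where the nearest of the others had 3.6 CPM, a gap of 0.868 of the range. The value rests on 8 reads.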

How the results depend on the processing

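Of 833 member values under alternatives, 781 kept the direction of the 35 main values, 52 had the opposite one and 0 passed the threshold, with a lowest adjusted p of 0.0753. P2rx4 in the wild-type response stayed positive throughout. The depth leaves Nt5e and 36 other pathway genes untested. The cause of the differences below was not tested.

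All genes called in the wild-type response, 13 in the main test, numbered 36 with DESeq2, 124 with no filter, 87 and 22 on log2(TPM + 1) and log2(TPM + 0.1), 33 with the 2 groups alone, 3 with the rod covariate and 4 with protein-coding transcripts, and 0 to 29 leaving out a library, 0 without microbead library 2. Other pathway genes called there were 1 with DESeq2, log2(TPM + 1) and the 2 groups alone (Adora1), 2 with no filter (Adora1 and Il1b) and 0 to 1 leaving out a library (Adora1, without microbead library 1). With no filter, 37 genes were called in the Apoe-/- response, 45 in the difference of responses, 41 between genotypes in sham and 73 in microbead retinas. The difference had 5 calls on log2(TPM + 1) and 1 with the rod covariate, and genotype in sham had 3 with the rod covariate. Genotype in microbead retinas, 3 in the main test, had 26 with DESeq2, 193 and 6 on log2(TPM + 1) and log2(TPM + 0.1), 1 with protein-coding transcripts and 1 to 7 leaving out a library. Adora1 was the 1 other pathway gene called there, on log2(TPM + 1). Genes singled out here were chosen after their values were seen.

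With the replicate number as a block, 7 genes were called in the wild-type response (6 of them among the 13) and 1 between genotypes in microbead retinas. Over 21 pairs of same-numbered libraries the correlation of deviations ran from -0.166 to 0.223, with 3 over 0.1. Libraries of different numbers reached 0.305, so these values cannot decide whether equal numbers mark a shared mouse or day. The block changed no call of a member.

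Opposite directions were as follows, as log2 values. In the wild-type response on log2(TPM + 1) and log2(TPM + 0.1), P2ry12 stood at 0.0705 and 0.0707, P2ry13 at 0.206 and 0.21, P2rx7 at 0.522 and 0.553 and Adora3 at 0.336 and 0.371. With no filter P2rx7 stood at 0.00316, and with the rod covariate Entpd1 at -0.137. In the Apoe-/- response P2ry12 stood at 0.0685 with no filter, 0.151 and 0.152 on the TPM scales and 0.00649 with the rod covariate. In the difference of responses P2rx4 stood at 0.212 with the rod covariate, Entpd1 at 0.00149 with RLE factors, 0.0279 with no filter and 0.325 with the rod covariate, and Adora3 at -0.0263 and -0.0184 on the TPM scales. Between genotypes in sham, P2ry6 stood at 0.0179 with protein-coding transcripts. In microbead retinas on the TPM scales, P2ry12 stood at -0.854 and -0.86, P2ry13 at -0.752 and -0.78 and Adora3 at -0.521 and -0.587, and Entpd1 at 0.00584 with the rod covariate.

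Leaving out a library gave ranges that cross 0 for P2rx7 (-0.127 to 0.0319) and Entpd1 (-0.0398 to 0.141) in the wild-type response. In the Apoe-/- response they were P2ry12 (-0.26 to 0.158), P2ry13 (-0.282 to 0.269) and Entpd1 (-0.175 to 0.259). In the difference they were P2ry6 (-0.247 to 0.0321) and Entpd1 (-0.239 to 0.204). Between genotypes they were Entpd1 in sham (-0.385 to 0.0598) and P2ry13 in microbead retinas (-0.104 to 0.424).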
